A study of Bos taurus with 7 samples.

Results

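DNA replication licensing and S-phase genes were followed in bovine luteal tissue between day 4 and day 6 of the estrous cycle. The group holds 51 genes named by symbol from textbook roles in origin licensing, fork assembly, nucleotide supply and entry into S phase. All 51 were found among the 19539 entries of the authors' deposited table, each on a single entry, and all 51 were tested there.

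Messenger RNA was sequenced from whole glands, in 3 libraries of day 4 and 4 libraries of day 6. All cows had received the same synchronisation, namely a progesterone device, a PGF2α injection and gonadotropin-releasing hormone, and were otherwise untreated. The labels say that day 4 glands came from slaughtered cows and that glands taken after day 6 were removed by colpotomy, through the vaginal wall, which leaves the route for day 6 itself unstated. Any effect of the route cannot be told apart from that of the day. Whether each library is a separate cow is not stated in the labels, and p-values then measure only the spread between these samples, which may be technical.

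The corpus luteum forms from the ovulated follicle and grows rapidly in its first days, with dividing endothelial and other cells beside the steroidogenic cells. Before a cell copies its DNA, the origin recognition complex (ORC) with CDC6 and CDT1 loads the MCM helicase onto origins, a step called licensing. Cyclin-dependent kinases then recruit CDC45 and the GINS complex, which turn the loaded helicase into a moving fork. Cyclins of the D and E type drive entry into S phase through E2F transcription factors, and inhibitors such as CDKN1B and CDKN1C hold the kinases back.

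Levels are the authors' mean TPM per day, a share of transcripts scaled for length, so that they can be compared between genes. Values per library are not given there, so neither the spread within a day nor any overlap between days can be shown, and the sequencing depth is unknown. Fold changes are log2, day 6 over day 4, taken as the authors' Wald statistic times its standard error (SE). A gene was called where the authors' adjusted p (Benjamini-Hochberg, over 19485 tested entries) was under 0.05. Intervals are 95% Wald intervals. Of the tested entries 14.5% were called, 4.12% higher and 10.4% lower on day 6. These fold changes exceeded the log2 ratio of mean TPM by 0.21 in the median, so a gene at an equal TPM on both days has a fold change near 0.21. Of all calls 28.4% were higher, against 7.24% with that shift taken off and 53.7% on a TPM scale built after leaving out mitochondrially encoded genes, which took 10.3% of mean TPM on day 4 and 29.2% on day 6.

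The replication machinery was present on both days at similar mean TPM, and the genes called lower on day 6 were cell cycle regulators. Without D cyclins and kinase inhibitors, 23 of 46 genes had an interval within a 2-fold change in both directions. Of the 51 genes 3 were called lower (5.88%, beside 10.4% of all entries) and 0 higher (beside 4.12%) by the authors' Wald test, in which 1 gene was higher and 3 were lower at an unadjusted p under 0.05 (7.84%, beside 28.5% of all entries). The called genes were the cyclin CCND2 and the kinase inhibitors CDKN1B and CDKN1C. None of the other 48 was called, and 46 genes remain when D cyclins and kinase inhibitors are set aside, of which 1 had an unadjusted p under 0.05. Fold changes were positive for 40 of 51 genes, beside 47.5% of all entries. On the log2 ratio of mean TPM 31 of 51 were positive, beside 6205 positive and 11993 negative among all tested entries. The median fold change was 0.33, beside -0.04 over all entries and 0.06 over the 11408 entries within the same range of mean TPM. With the shift to the TPM scale taken off, the median was 0.11, beside -0.26 over all entries. On the TPM scale that leaves out mitochondrially encoded genes the median was 0.45, beside 0.08 over all entries.

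Levels spanned from 2.39 TPM (POLE) to 123 TPM (CCND3) on day 4 and from 2.94 TPM (ORC1) to 154 TPM (CCND3) on day 6 in the authors' deposited table. The median level of the 51 genes was 13.6 TPM on day 4 and 13.5 TPM on day 6, above the medians of all tested entries of 7.19 and 5.54 TPM. The order of the genes changed little, with a Spearman coefficient of 0.95 between both days over 51 genes whose means come from shared libraries. The ratio of day 6 to day 4 TPM lay within 1.5-fold for 47 of 51 genes. POLE lay above that range and CCND2, CDKN1B and CDKN1C lay below it. CDKN1C went from rank 2 to rank 10, CDKN1B from 9 to 24, and CCND2 from 27 to 42.

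**Figure D1:**
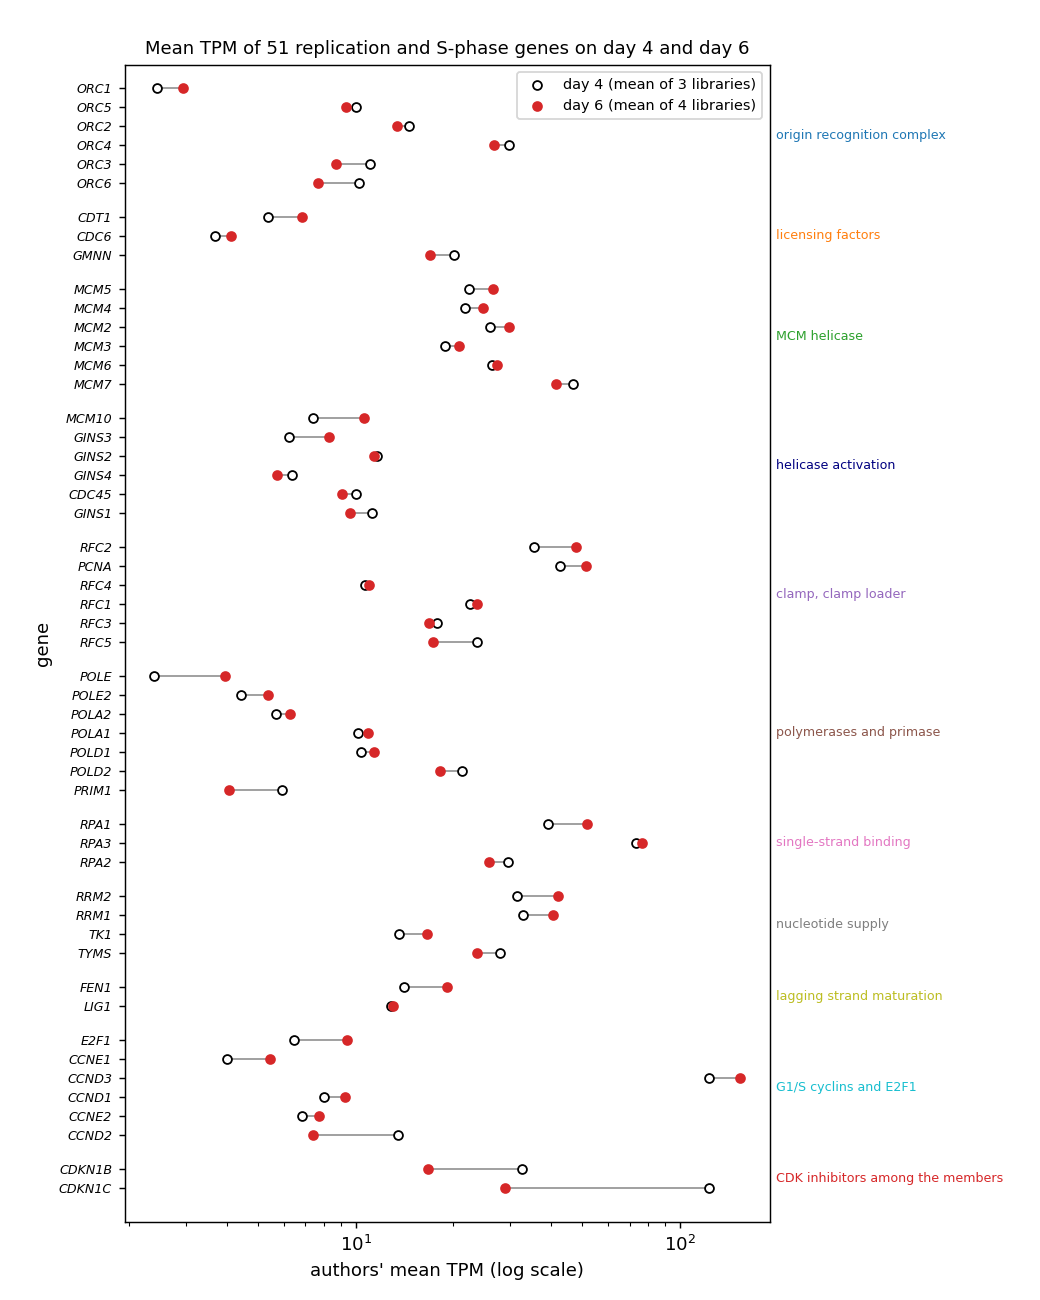
Authors' mean TPM (log axis) of each of the 51 genes on day 4 (open, mean of 3 libraries) and day 6 (red, mean of 4 libraries), grouped by role and joined by a line. Most pairs of points lie close together, and CDKN1C shows the longest line, from 123 to 28.9 TPM.

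The 6 ORC subunits mark origins, and 5 of them were measured with small errors. ORC4 was the most abundant subunit on both days, at 29.7 TPM on day 4 and 26.8 TPM on day 6 in the authors' deposited table (log2 0.04 ± 0.12 SE, interval -0.19 to 0.27). ORC1, which in mammalian cells is turned over with the cell cycle, was the least abundant, at 2.43 and 2.94 TPM there (log2 0.48 ± 0.52). The ratio of ORC4 to ORC1 was 12.2 on day 4 and 9.12 on day 6. ORC6 had the smallest adjusted p of the complex and the lowest fold change, at 10.2 and 7.65 TPM in the authors' deposited table (log2 -0.20 ± 0.16, adjusted p = 0.414). ORC2, ORC3 and ORC5 stood between 10.01 and 14.6 TPM on day 4 and between 8.72 and 13.5 TPM on day 6 there. The intervals of 5 of the 6 subunits lay within a 2-fold change in either direction, while that of ORC1 reached from 0.69 to 2.82 times the day 4 level. None was called, and the median fold change of the complex was 0.05. With the shift to the TPM scale taken off, ORC6 was called lower (log2 -0.42, adjusted p = 0.042). On that scale 3832 of all 19485 entries were called lower, beside 2020 by the authors' test.

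CDC6, which helps ORC to load the helicase, stood at 3.67 and 4.13 TPM in the authors' deposited table (log2 0.40 ± 0.49). CDT1, its loading partner, stood at 5.36 and 6.85 TPM there (log2 0.56 ± 0.46, adjusted p = 0.433). GMNN encodes geminin, which binds CDT1 and blocks loading after S phase has begun. It was the most abundant of these 3 genes, at 20.1 and 17.01 TPM in the authors' deposited table (log2 -0.03 ± 0.25). The ratio of GMNN to CDT1 mean TPM was 3.75 on day 4 and 2.48 on day 6, with overlapping intervals of the fold changes.

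The subunits MCM2 to MCM7 together form the ring of the helicase. They summed to 162 TPM on day 4 and 171 TPM on day 6 in the authors' deposited table. MCM7 was the highest at 46.9 and 41.6 TPM there (log2 0.01 ± 0.20), 28.9% and 24.4% of the sum. MCM3 was the lowest at 18.9 and 20.8 TPM (log2 0.36 ± 0.41 in the authors' deposited table). The span from the lowest to the highest subunit was 2.48-fold on day 4 and 2.00-fold on day 6. MCM4 had the smallest adjusted p, at 21.8 and 24.6 TPM in the authors' deposited table (log2 0.41 ± 0.35, adjusted p = 0.462). MCM5 had the highest fold change, at 22.4 and 26.6 TPM there (log2 0.46 ± 0.41). MCM2 stood at 25.9 and 29.7 TPM and MCM6 at 26.3 and 27.2 TPM in the authors' deposited table. All 6 fold changes were positive, that of MCM7 turning negative with the shift to the TPM scale taken off (-0.20) and when centred on the median entry (-0.016). None was called.

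Genes that start the fork were lower in level, from 6.23 to 11.7 TPM on day 4 and from 5.74 to 11.4 TPM on day 6 in the authors' deposited table. MCM10, which helps to activate the loaded helicase, had the highest fold change among them, at 7.41 and 10.6 TPM there (log2 0.73 ± 0.52, adjusted p = 0.36). CDC45, a part of the active helicase, stood at 10.0 and 9.07 TPM in the authors' deposited table (log2 0.00 ± 0.18, interval -0.35 to 0.36). The 4 GINS subunits belong to a single complex and had fold changes from -0.02 to 0.63. GINS3 had the smallest adjusted p, at 6.23 and 8.26 TPM in the authors' deposited table (log2 0.63 ± 0.41, adjusted p = 0.303). GINS1 stood at 11.3 and 9.59 TPM (log2 -0.02 ± 0.27), GINS2 at 11.7 and 11.4 TPM and GINS4 at 6.35 and 5.74 TPM there. The GINS intervals all overlap, and none of the 6 genes was called.

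PCNA, the sliding clamp that holds polymerases on DNA, stood at 42.8 and 51.4 TPM in the authors' deposited table (log2 0.48 ± 0.39, adjusted p = 0.433). The clamp is loaded by the RFC complex, whose subunits had fold changes of either sign. RFC2 was the most abundant subunit, at 35.4 and 47.7 TPM in the authors' deposited table (log2 0.54 ± 0.36). RFC5 had the smallest adjusted p of clamp and loader, at 23.7 and 17.3 TPM there (log2 -0.27 ± 0.16, adjusted p = 0.256). With the shift to the TPM scale taken off, RFC5 was called lower (log2 -0.48, adjusted p = 0.0165), on a scale where 3832 of all entries were. RFC1, the large subunit, stood at 22.6 and 23.6 TPM in the authors' deposited table, RFC3 at 17.8 and 16.9 TPM and RFC4 at 10.7 and 11.0 TPM. The intervals of RFC2 (-0.17 to 1.25) and RFC5 (-0.58 to 0.04) overlap.

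Among the polymerases, POLE, the catalytic subunit of the leading strand polymerase, had the highest fold change of all 51 genes. It stood at 2.39 and 3.95 TPM in the authors' deposited table (log2 0.96 ± 0.50, interval -0.02 to 1.95, adjusted p = 0.185) and was not called. Its partner POLE2 stood at 4.42 and 5.38 TPM there (log2 0.50 ± 0.48). POLD1, the catalytic subunit of polymerase delta, stood at 10.4 and 11.4 TPM in the authors' deposited table (log2 0.33 ± 0.25), and its partner POLD2 at 21.3 and 18.2 TPM (log2 -0.01 ± 0.15). POLA1 and POLA2, of the polymerase that begins each new strand, stood at 10.1 to 10.9 TPM and 5.68 to 6.26 TPM there. PRIM1, the catalytic subunit of primase, acts in the same complex and had the lowest fold change of this set, at 5.93 and 4.06 TPM in the authors' deposited table (log2 -0.34 ± 0.29). Its interval (-0.90 to 0.22) overlaps those of POLA1 (-0.07 to 0.76) and POLA2 (-0.21 to 0.94). None of these 7 genes was called.

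The RPA trimer coats single-stranded DNA at the fork. RPA1, the large subunit, was the only gene of the machinery with an unadjusted p under 0.05, at 39.3 and 51.8 TPM in the authors' deposited table (log2 0.62 ± 0.29, adjusted p = 0.128). RPA2 stood at 29.6 and 25.8 TPM there (log2 0.01 ± 0.17), so that the ratio of RPA1 to RPA2 mean TPM was 1.33 on day 4 and 2.01 on day 6, with overlapping intervals. RPA3, the small subunit, was the most abundant gene of the machinery at 73.1 and 76.7 TPM in the authors' deposited table (log2 0.29 ± 0.37).

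Nucleotide supply genes stood between 13.6 and 32.8 TPM on day 4 and between 16.6 and 42.2 TPM on day 6 in the authors' deposited table. RRM1 and RRM2 form ribonucleotide reductase, which makes deoxynucleotides. Their means were close to each other, at 32.8 and 31.5 TPM on day 4 and 40.5 and 42.2 TPM on day 6 there. Their errors differed, with log2 0.51 ± 0.32 for RRM1 (adjusted p = 0.272) and 0.64 ± 0.66 for RRM2 in the authors' deposited table. TK1, the salvage kinase for thymidine, stood at 13.6 and 16.6 TPM there (log2 0.50 ± 0.40). TYMS, which makes thymidylate anew, stood at 27.8 and 23.7 TPM in the authors' deposited table (log2 -0.01 ± 0.21). FEN1, which trims the flaps of lagging strand fragments, stood at 14.1 and 19.1 TPM there (log2 0.66 ± 0.49, adjusted p = 0.381). LIG1, the ligase that joins them, stood at 12.9 and 13.0 TPM in the authors' deposited table (log2 0.24 ± 0.24). None of these 6 genes was called.

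Cyclins of the D type bind CDK4 and CDK6, take up mitogen signals and were led by CCND3 on both days. CCND2 was called lower on day 6, at 13.5 and 7.39 TPM in the authors' deposited table (log2 -0.67 ± 0.21, adjusted p = 0.0129). CCND3 stood at 123 and 154 TPM there (log2 0.52 ± 0.30, adjusted p = 0.244), and CCND1 at 7.98 and 9.29 TPM (log2 0.46 ± 0.31). The interval of CCND2 (-1.07 to -0.27) lay apart from those of CCND3 (-0.07 to 1.11) and CCND1 (-0.15 to 1.07), and the differences themselves were not tested, since values per library are needed for it. CCND3 made up 85.2% of the summed D cyclin TPM on day 4 and 90.2% on day 6, and CCND2 9.33% and 4.33%. CCND1 stood below CCND2 on day 4 (0.59 of its mean TPM) and above it on day 6 (1.26 times).

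The E cyclins activate CDK2 at the start of S phase. CCNE1 stood at 4.01 and 5.45 TPM in the authors' deposited table (log2 0.65 ± 0.41, adjusted p = 0.29), and CCNE2 at 6.84 and 7.69 TPM (log2 0.39 ± 0.38). E2F1, a transcription factor of S-phase genes, had the highest fold change of cyclins and E2F1, at 6.46 and 9.44 TPM in the authors' deposited table (log2 0.76 ± 0.47, adjusted p = 0.274). None of the 3 was called.

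Both kinase inhibitors of the group were called lower. CDKN1C was as abundant as CCND3 on day 4, at 123 TPM, and stood at 28.9 TPM on day 6 in the authors' deposited table (log2 -1.94 ± 0.66, adjusted p = 0.0282). Its fold change was the largest in size of all 51 genes and also had the largest SE, with an interval from -3.24 to -0.65. CDKN1B stood at 32.5 and 16.7 TPM there (log2 -0.75 ± 0.26, interval -1.26 to -0.24, adjusted p = 0.0316). CDKN1A, the third inhibitor of this family and not one of the 51, stood at 34.4 and 46.5 TPM in the authors' deposited table (log2 0.65 ± 0.32, interval 0.02 to 1.27, adjusted p = 0.158). The 3 inhibitors summed to 190.2 TPM on day 4 and 92.1 TPM on day 6, of which CDKN1C held 64.8% and 31.4%, and CDKN1A 18.1% and 50.4%. The call of CDKN1B was lost on the TPM scale that leaves out mitochondrially encoded genes (log2 -0.62, adjusted p = 0.0725). The calls of CCND2, CDKN1B and CDKN1C were lost at an adjusted p under 0.01, against a fold of 1.5 and with the normal replaced by a t distribution (5 degrees of freedom). With that t distribution 0 of all entries were called, so the last loss is not particular to these genes.

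**Figure D2:**
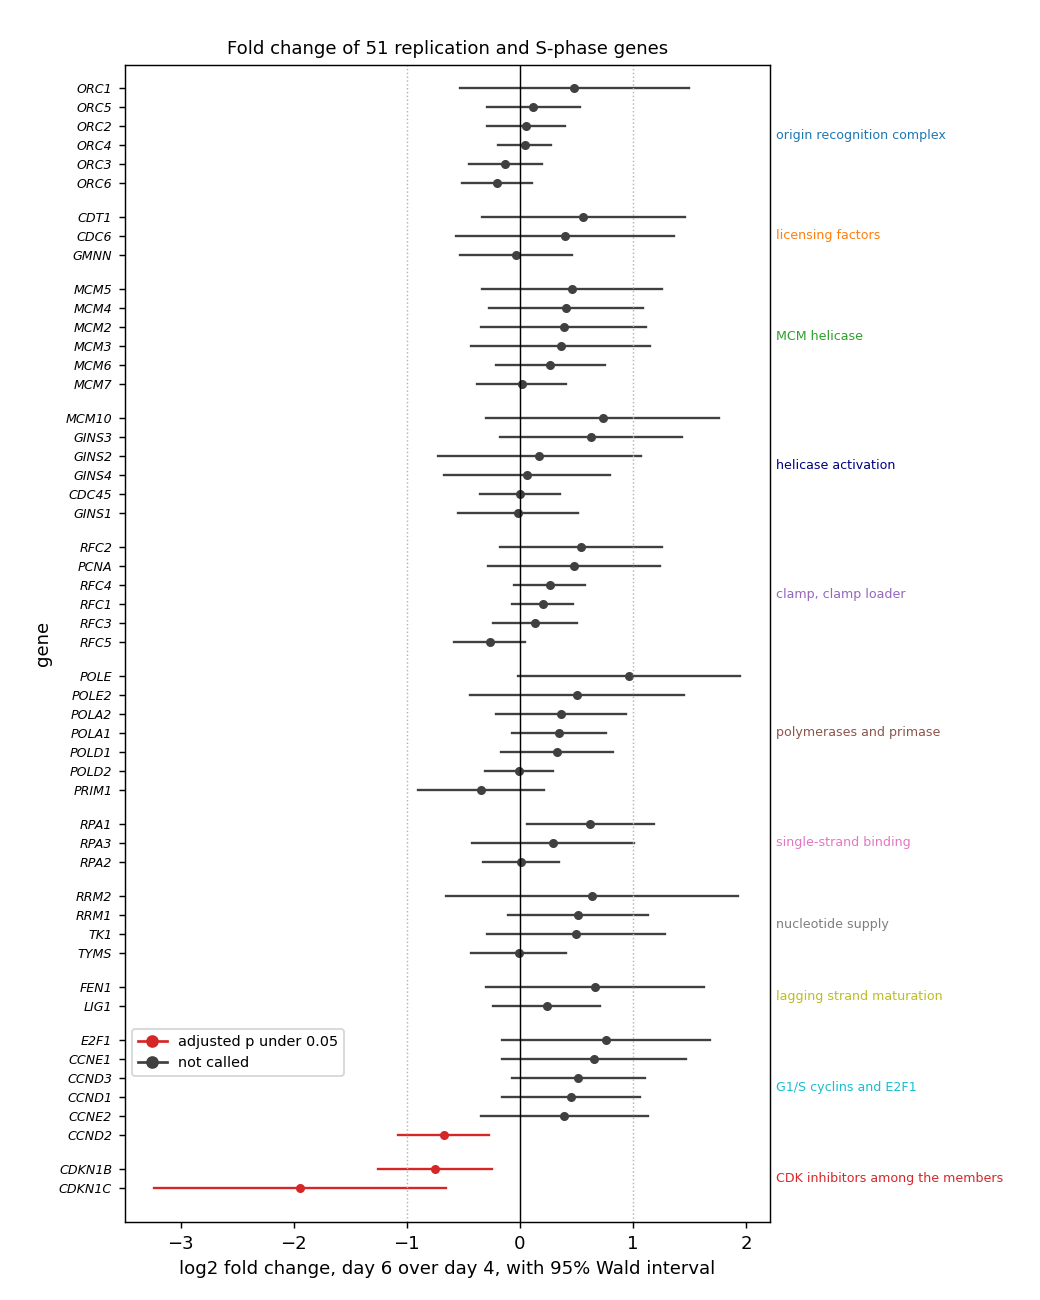
Log2 fold change, day 6 over day 4, of each of the 51 genes with its 95% Wald interval, grouped by role, in red where the adjusted p was under 0.05. The solid line marks no change and the dotted lines a 2-fold change, and the 3 red intervals, of CCND2, CDKN1B and CDKN1C, lie wholly below 0.

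What these data can leave out differed between genes. For 48 of 51 genes the interval lay above a 2-fold fall, the exceptions being the called genes. For 26 of 51 genes it lay below a 2-fold rise, and for 23 (45.1%) it lay within a 2-fold change in both directions, beside 41.8% of all tested entries and 63.1% of entries of the same range of mean TPM. For the other uncalled genes a 2-fold rise is not left out by the interval, among them PCNA (to 1.24), MCM5 (to 1.26), RRM2 (to 1.93) and MCM10 (to 1.76).

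Fold changes and errors went together in most of these genes, with CDKN1C, which had the largest SE and the lowest fold change, as the clearest exception. Split by SE into 3 sets of 17, the genes with the smallest SE (0.12 to 0.24) had a median fold change of 0.01, those in the middle 0.36, and those with the largest (0.39 to 0.66) 0.50. The set with small errors holds 5 of the ORC subunits, RFC1, RFC3, RFC4, RFC5, RPA2, POLD2, CDC45, MCM7, TYMS, POLA1, LIG1 and CCND2. The set with large errors holds CDC6, CDT1, ORC1, MCM3, MCM5, MCM10, GINS2, GINS3, PCNA, TK1, RRM2, FEN1, POLE, POLE2, CCNE1, E2F1 and CDKN1C. The deposited TPM means, which do not involve the SE, were higher on day 6 for 4, 12 and 15 of the 17 genes of these sets. Among all tested entries 6205 were higher and 11993 lower on that measure. Over all 51 genes the Spearman coefficient between fold change and SE was 0.67 and Pearson's 0.24, a description over genes that share the same libraries. Over the 46 genes without D cyclins and kinase inhibitors they were 0.79 and 0.75, and over 40 mitotic genes 0.23 and 0.40. They were not computed over all entries, so whether the trend is particular to these genes was not tested. The SE is a factor of the fold change as computed here. Spearman's coefficient between SE and mean TPM was -0.30 over the 46 genes. The fold changes of these 46 genes had an SD of 0.30, beside a root mean square SE of 0.35. Errors of genes measured in the same libraries can be shared, so these values do not tell whether the genes differ among themselves.

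**Figure D3:**
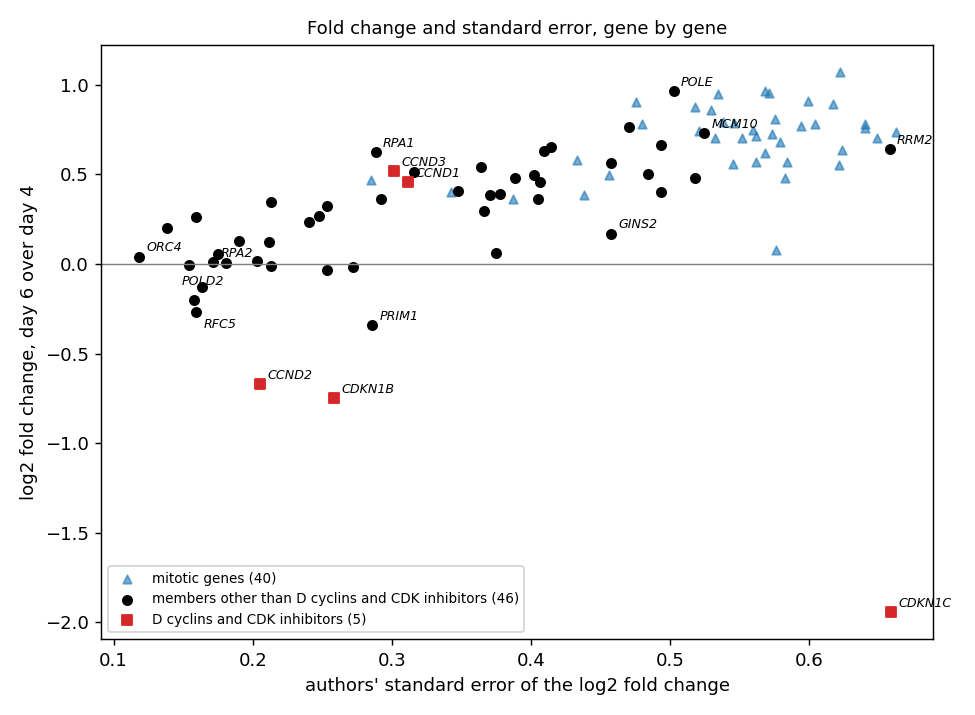
Log2 fold change, day 6 over day 4, against the authors' SE for 46 replication and S-phase genes (black), 5 D cyclins and kinase inhibitors (red) and 40 mitotic genes (blue). Black points climb from near 0 at small SE to POLE at 0.96, most mitotic genes lie at the upper right, and CDKN1C, CDKN1B and CCND2 lie far below the others.

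Other genes of the pathway, 88 in 4 lists drawn from textbook roles, were present for 86, of which 2 were called higher and 1 lower (3.49% in all, beside 14.5% of all entries). MCMBP, which binds MCM subunits, was called higher among 32 further fork and firing genes, at 23.2 and 29.4 TPM in the authors' deposited table (log2 0.56 ± 0.14, adjusted p = 0.00114). Its call was narrowly lost with the shift to the TPM scale taken off (log2 0.35, adjusted p = 0.0517). POLD4, a small subunit of polymerase delta, stood at 32.1 and 20.6 TPM there (log2 -0.49 ± 0.21, adjusted p = 0.0994). DSCC1, of an alternative clamp loader, stood at 9.49 and 6.35 TPM and the topoisomerase TOP1 at 44.8 and 49.4 TPM in the authors' deposited table, neither called. The median of these 32 genes was 0.27. DCTPP1, a pyrophosphatase of dCTP, was called higher among 11 nucleotide supply genes, at 44.7 and 124 TPM in the authors' deposited table (log2 1.72 ± 0.41, adjusted p = 0.000778). GART of purine synthesis stood at 15.1 and 19.3 TPM there and was not called. The median of these 11 genes was 0.39. Among 10 chromatin genes that act behind the fork 0 were called by the authors' Wald test, 0 also at an unadjusted p under 0.05, with a median of 0.39. The maintenance methylase DNMT1 stood at 16.6 and 18.6 TPM in the authors' deposited table (log2 0.39 ± 0.22) and the histone chaperone gene CHAF1B at 7.02 and 8.11 TPM.

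Of 33 further genes of G1/S control 1 was called, beside 14.5% of all entries. By the authors' Wald test 10 had an unadjusted p under 0.05 (7 higher, 3 lower), beside 28.5% of all entries. MYC, a transcription factor of growth and proliferation, was called lower, at 63.3 and 15.4 TPM in the authors' deposited table (log2 -1.83 ± 0.42, adjusted p = 0.000389). The retinoblastoma family restrains E2F, and its members stood at fold changes of either sign without a call. In the authors' deposited table RB1 stood at 8.35 and 9.83 TPM (log2 0.39 ± 0.15, adjusted p = 0.0561) and RBL1 at 5.84 and 9.38 TPM (log2 0.92 ± 0.37, adjusted p = 0.076). RBL2 stood at 19.5 and 12.1 TPM there (log2 -0.52 ± 0.22, adjusted p = 0.0969). Its interval (-0.95 to -0.08) lay apart from those of RB1 (0.10 to 0.68) and RBL1 (0.19 to 1.65). These intervals are not adjusted for the number of genes, and the differences themselves were not tested. E2F3, of the same class of activators as E2F1, stood at 4.34 and 6.57 TPM in the authors' deposited table (log2 0.84 ± 0.36, adjusted p = 0.0936). E2F2, also of that class, had the highest fold change of this list, at 3.73 and 8.02 TPM there (log2 1.37 ± 0.64, adjusted p = 0.132). The kinases to which these cyclins bind stood at 16.2 and 14.1 TPM for CDK2 and 67.5 and 61.5 TPM for CDK4 in the authors' deposited table, with log2 fold changes of 0.03 ± 0.23 and 0.05 ± 0.20. CDK6 stood lower in level, at 2.57 and 3.66 TPM there (log2 0.75 ± 0.38, adjusted p = 0.172), and was not called. The median of the 33 genes was 0.38. The calls of MCMBP, DCTPP1 and MYC were lost against a fold of 1.5 and with the t distribution, under which 0 of all entries were called.

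The 40 genes of mitosis, which follows S phase, showed higher fold changes than the replication genes, and the difference was not tested. By the authors' Wald test 0 were called (beside 14.5% of all entries), and 0 had an unadjusted p under 0.05 (beside 28.5%). Their median was 0.73 with a median SE of 0.56, beside 0.33 and 0.30 for the 51 genes, and all 40 fold changes were positive, from 0.08 to 1.07. Their summed mean TPM was 684 on day 4 and 911 on day 6 in the authors' deposited table, a ratio of 1.33. The 46 genes of the replication machinery and its E cyclins and E2F1 summed to 828 and 882 TPM, a ratio of 1.07.

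**Figure D4:**
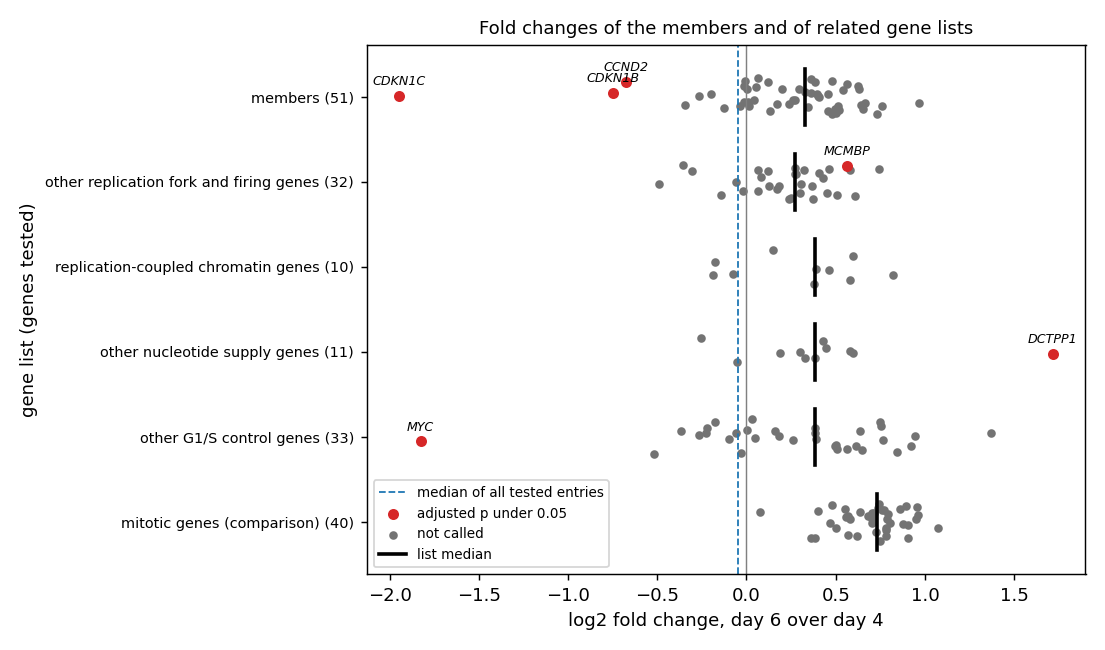
Log2 fold change, day 6 over day 4, of the 51 genes (members) and of 5 related gene lists, 1 point per gene, with the list median as a black bar, called genes in red and the median of all tested entries as a dashed line. Called genes are CCND2, CDKN1B and CDKN1C, then MCMBP, DCTPP1 and MYC, and the mitotic genes have the highest median, 0.73.

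Some marker genes of the cells in the gland were called as well. Of all entries 14.5% were called, 4.12% higher and 10.4% lower, and most lists below had a larger share called lower. All 8 steroidogenic luteal markers were present from 68.5 TPM upward, and they summed to 14090 TPM on day 4 and 26658 TPM on day 6, with 2 of 8 called higher. OXT alone held 8052 and 10393 TPM of these sums and was not called (log2 0.56 ± 1.33). Pericyte and smooth muscle markers summed to 2397 and 670 TPM, with 5 of 10 called lower, and the abundant ACTA2 alone stood at 1329 and 328 TPM in the authors' deposited table. RGS5 (log2 0.05 ± 0.30) and MCAM (log2 0.11 ± 0.20) of the same list were not called there. Fibroblast markers, a sum held mostly by collagens, stood at 12799 and 10408 TPM, and 3 of 10 were called lower, namely DCN, PDGFRA and FBLN1. The collagens COL1A1 (log2 0.08 ± 0.26), COL1A2 (log2 -0.04 ± 0.29) and COL3A1 (log2 0.30 ± 0.33) were not called. Of the 10 fibroblast fold changes 3 were positive and 7 negative. Macrophage markers summed to 108 and 49.9 TPM (3 of 10 called lower), T and NK cell markers to 28.1 and 11.5 TPM (4 of 10) and B and plasma cell markers to 85.5 and 3.88 TPM (4 of 8). Of the last sums JCHAIN alone held 66.8 and 2.20 TPM. Endothelial markers summed to 377 and 297 TPM, with 1 of 10 called lower, namely CLDN5 at 60.1 and 15.6 TPM. Of the 10 endothelial fold changes 4 were positive and 6 negative, with a median of -0.15. Of 5 erythroid markers tested 1 was called lower. These sums are of mean TPM, of which mitochondrially encoded genes took 10.3% on day 4 and 29.2% on day 6. A larger share of those genes lowers the TPM of all others. In whole tissue, fewer cells of a type and less RNA per cell cannot be told apart. CCND2, CDKN1B and CDKN1C were called lower beside these marker lists, and the part of cell composition in their values was not tested.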

How the data were processed

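Luteal libraries of day 4 and day 6 were sequenced as single reads. Per the submitters' processing notes, the build was ARS-UCD1.2 and the tools included FastQC and DESeq2, no version being named. The aligner, counter and annotation used are not given in the sources here. The authors' deposited table gives mean values in TPM, a unit read from its column sums of 999999. Its log2FC column, as deposited, equals log2 of the ratio of mean TPM plus 1, which held for 19539 entries within 1e-06. The deposited score is the Wald statistic, with a log2 standard error, a p-value and an adjusted p-value by the authors. The 54 entries with a deposited p-value of 1 were left out.

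Fold changes were computed as score times standard error (Python 3.11.15, pandas 2.3.3, scipy 1.17.1). No test across libraries was run. The adjustment was tested on simulated fold changes, drawn from a normal distribution with the deposited standard errors, independently for each gene. Such a draw checks the calculation and not whether those errors hold for 3 and 4 libraries. Counts per library were foreseen in the plan and are not in the table, so edgeR was not used. The genes and lists were chosen with earlier results of these data known. Genes given in full are, per role, the smallest adjusted p and the highest and lowest fold change, any called gene, and for related lists called genes and those of smallest adjusted p; not all of these are printed, and others were named after their values were seen. No coordinates are given, since the annotation used for overlaps and symbols, ARS-UCD2.0, is of another build. In it 10 of the 51 genes (RFC4, RPA2, RPA3, GINS1, CCNE2, RFC5, CDT1, TYMS, FEN1, CCND1) overlap a protein-coding gene, and reads shared by such neighbours make their values uncertain.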

Additional observations from a re-analysis of the deposited data

How the results depend on the processing

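No member was called higher under any alternative. The 3 members called lower became 5 with the shift to the TPM scale taken off (ORC6 and RFC5 added) and 2 on the TPM scale that leaves out mitochondrially encoded genes. Over all 19485 entries, 2020 lower calls became 3832 and 1595 on these 2 scales. The 3 members became 0 at an adjusted p under 0.01, where 1142 of all entries were called lower. They also became 0 by a Wald test against a fold of 1.5, where 457 of all entries were called lower. With a t distribution (5 degrees of freedom) they became 0 as well. Under it 0 of all entries were called and 3133 had an unadjusted p under 0.05. The count stayed at 3 when centred on the median entry and among entries of at least 1 TPM. The median of the members ranged from 0.10 (deposited log2 ratio with 1 TPM added) to 0.45 (TPM scale that leaves out mitochondrially encoded genes), with 0.11 on the log2 ratio with 0.1 TPM added and 0.30 when centred. Over the 7 alternatives with a test, the adjusted p ran from 0.000333 to 1 for CCND2, from 0.0023 to 1 for CDKN1B, from 0.00859 to 0.603 for CDKN1C, from 0.042 to 1 for ORC6, from 0.0165 to 1 for RFC5, from 3.61e-05 to 1 for MCMBP, from 0.000256 to 0.254 for DCTPP1 and from 3.49e-05 to 0.252 for MYC. Fold changes near 0 turned negative on the TPM scale for MCM7 (-0.20), ORC2 (-0.16), ORC4 (-0.17), ORC5 (-0.095), CDC45 (-0.21), GINS2 (-0.045), GINS4 (-0.15), RFC1 (-0.014), RFC3 (-0.085) and RPA2 (-0.20). They turned negative when centred for MCM7 (-0.016), CDC45 (-0.026) and RPA2 (-0.020), and positive without the mitochondrially encoded genes for GMNN (0.091), GINS1 (0.11), POLD2 (0.12) and TYMS (0.11). These turns follow from the shifts of 0.21, 0.03 and -0.13 that define the scales. Each member stands on 1 entry, so the choice among repeated symbols changed nothing. No paired analysis was possible because the table holds no values per library, and for the same reason no replicate was left out and no other normalization was run. Promoter and protein motifs were not run. Depth is unknown and sets no limit that can be computed here.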
